A study of Danio rerio with 170 samples.

Results

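The transcriptome of whole zebrafish larvae exposed to Nafion byproduct 2 (NB2) and sampled at 96 h post fertilization (hpf) was compared with that of vehicle larvae of the same age. The 10 samples were chosen by their labels alone: all 5 samples exposed to 73 µM NB2 and all 5 vehicle samples of this age, out of 28 columns in the deposited table of the NB2 time course and out of 170 samples in the series. NB2 is a per- and polyfluoroalkyl substance (PFAS), a polyether sulfonic acid that arises in the making of the fluoropolymer Nafion. The series compared developing zebrafish exposed to PFAS of differing structure with their vehicle controls, and sampled animals exposed to NB2 at successive ages at a single concentration. The question addressed by the age series was how the transcriptional response to NB2 develops over time.

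Animals of both groups were of the Tropical 5D Wildtype strain, and each sample was RNA from 8 pooled whole animals. NB2 larvae received 73 µM NB2 in 1% dimethyl sulfoxide (DMSO), and vehicle larvae received 1% DMSO alone. Animals of both groups had their chorions removed, were held in individual sealed wells in the dark, and were exposed once from 6 hpf with no change of medium. The labels do not say whether the 5 pools of a group came from separate spawns or plates, so the p-values measure the spread between pools. Messenger RNA was read from its 3′ end, and the authors deposited log2 variance-stabilized values, from which whole reads were recovered in every column (100% of values were whole within 0.05). Recovered reads per sample numbered 7870492 to 12415410 (median 9810564) in NB2 larvae and 10861337 to 14609280 (median 13147958) in vehicle larvae, so NB2 larvae were read at lower depth. Of 34 marker genes of larval tissues 33 were found, and 27 of these had reads in all 10 samples. Values per sample are normalised read counts, that is recovered reads divided by the size factor of the sample, given in the order of samples A to E of each group, as the columns are lettered. Differences are NB2 minus vehicle on the deposited log2 scale, given ± their standard error. This scale understates the change of genes with few reads. Group means are given ± the SD between the samples of the group, and folds are ratios of mean normalised counts.

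The age of 96 hpf falls where the zebrafish embryo becomes a feeding larva: yolk is running out, and the liver, gut, eye and swim bladder start to work. A fasting animal turns down insulin and insulin-like growth factor (IGF) signalling, burns fatty acids, breaks down muscle protein and makes glucose. Several PFAS resemble fatty acids in shape and, in rodents, act through the fatty acid receptor PPARα in the liver. Cells under stress switch on further programmes, whose marker genes are partly shared. These include chaperones against unfolded protein, the integrated stress response to amino acid shortage, antioxidant genes under NRF2, and genes under p53.

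NB2 larvae differed from vehicle larvae at 4568 of 24853 genes tested at 96 hpf (18.4%). Of these, 2044 genes were higher in NB2 larvae (8.22%) and 2524 were lower (10.2%), by limma with an adjusted p below 0.05 (Benjamini-Hochberg over all genes tested). The large changes ran the other way: 368 genes were higher by over 1 on the log2 scale, and 78 were lower by as much (1.79% of genes in both directions). All 5 NB2 samples lay above all 5 vehicle samples at 1560 genes (6.28%) and below them at 1759 (7.08%). The median difference over all genes tested was -0.02, and 53.9% of genes had a difference below 0.

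The share of called genes that were higher depended on scaling between samples. On the deposited scale 44.7% of called genes were higher in NB2 larvae, against 56.2% (2489 higher and 1936 lower) on log2(CPM + 1) of the recovered reads and 55% (2444 higher and 2002 lower) when the mitochondrial ribosomal RNA gene mt-rnr2, which held 26.7% to 27.8% of reads in NB2 larvae and 27% to 28.1% in vehicle larvae, was also left out of the totals. In the first 2 principal components, which held 69.8% and 10.6% of the variance, NB2 larvae of 96 hpf lay at 47.5 to 52.7 on the first and 16.1 to 25.6 on the second, and vehicle larvae of 96 hpf at 31 to 33 and -9.1 to -5.2. The groups did not overlap on either axis. NB2 sample B lay nearest to the vehicle larvae: it was the lowest of the 5 NB2 samples at 955 of the 2044 genes that rose (46.7%). It stood out less among the 2524 genes that fell, where NB2 B was the highest at 727 (28.8%) and NB2 D at 704 (27.9%). Without NB2 B, 4472 genes were called.

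**Figure D1:**
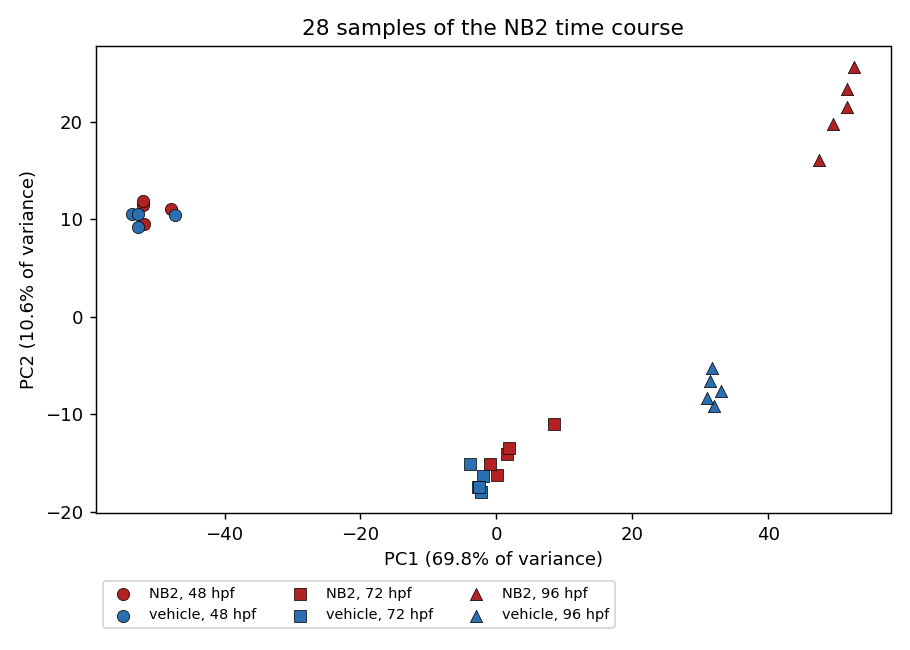
Principal component analysis of the 28 samples of the age series on their 10000 most highly read genes, with the first component on the x axis (69.8% of the variance) and the second on the y axis (10.6%), 1 point per sample. NB2 larvae of 96 hpf lie at 16.1 to 25.6 on the second component, apart from vehicle larvae of 96 hpf at -9.1 to -5.2.

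Genes were named by a rule on size (the 15 largest rises and 15 largest falls among well-read genes with a symbol and groups that did not overlap) and by a rule within 51 gene lists (up to 3 called members with the smallest p in each). Groups that did not overlap were a condition of the rule on size, so for genes named by it this is no separate result. Genes named beyond these rules were chosen after their values were seen. They are marked as chosen later, or as marker genes, where they are named. The shares called in each list stand beside 8.22% higher and 10.2% lower over all genes tested. All genes tested include those with few reads, and shares among genes read at like levels were not computed.

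The 15 largest rises included genes of insulin and IGF signalling, muscle breakdown and fuel choice. igfbp1b encodes an IGF-binding protein that is switched off by insulin and on in fasting. It had 960.4, 444, 489, 908 and 822 in NB2 larvae, against 29.9, 39.7, 30.8, 47.9 and 17.9 in vehicle larvae. Every NB2 sample lay above every vehicle sample, and the mean was 21.8-fold higher (difference 3.73 ± 0.24, limma adjusted p = 7.08e-15). Its paralog igfbp1a averaged 4351 ± 888 in NB2 larvae and 331 ± 67.4 in vehicle larvae (difference 3.62 ± 0.24). fbxo32 encodes atrogin-1, the ubiquitin ligase of muscle wasting. It had 1980.3, 819, 1361, 1499 and 1596 in NB2 larvae, against 98.5, 88.1, 60.6, 73.9 and 103 in vehicle larvae. The groups did not overlap, with NB2 B the lowest of the exposed samples, and the mean was 17.1-fold higher (difference 3.73 ± 0.16, limma adjusted p = 2.28e-19). pdk2b, which encodes a kinase that shuts down pyruvate dehydrogenase and so spares glucose, had 2628, 942, 1812, 2314 and 2060.2 in NB2 larvae, against 128, 70.8, 87.6, 89.3 and 60.5 in vehicle larvae. The groups again lay apart (difference 4.11 ± 0.27, limma adjusted p = 3.02e-14).

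cyp2k18, a cytochrome P450 of family 2, rose more than any other gene named by size, with 1482, 1176, 1278, 1291 and 1545 in NB2 larvae, against 65.7, 59.6, 25, 88.5 and 46.6 in vehicle larvae (difference 4.17 ± 0.20, limma adjusted p = 7.23e-18). arg2, which encodes the mitochondrial arginase, averaged 988 ± 212 in NB2 larvae and 82.7 ± 24.6 in vehicle larvae (difference 3.27 ± 0.23). tcap, which encodes the sarcomere protein telethonin, averaged 986 ± 449 in NB2 larvae and 72 ± 18.9 in vehicle larvae (difference 3.29 ± 0.34). The small heat shock gene hspb9 and the Polycomb gene cbx7a differed by 3.20 ± 0.28 and 3.21 ± 0.20. psme4a, which encodes an activator of the proteasome, averaged 618 ± 134 in NB2 larvae and 77.1 ± 17 in vehicle larvae (difference 2.67 ± 0.15). hsp70.3 has near-identical copies, so reads may be split among them, and it averaged 248 ± 84.9 in NB2 larvae and 19.7 ± 6.88 in vehicle larvae (difference 2.71 ± 0.20).

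**Figure D2:**
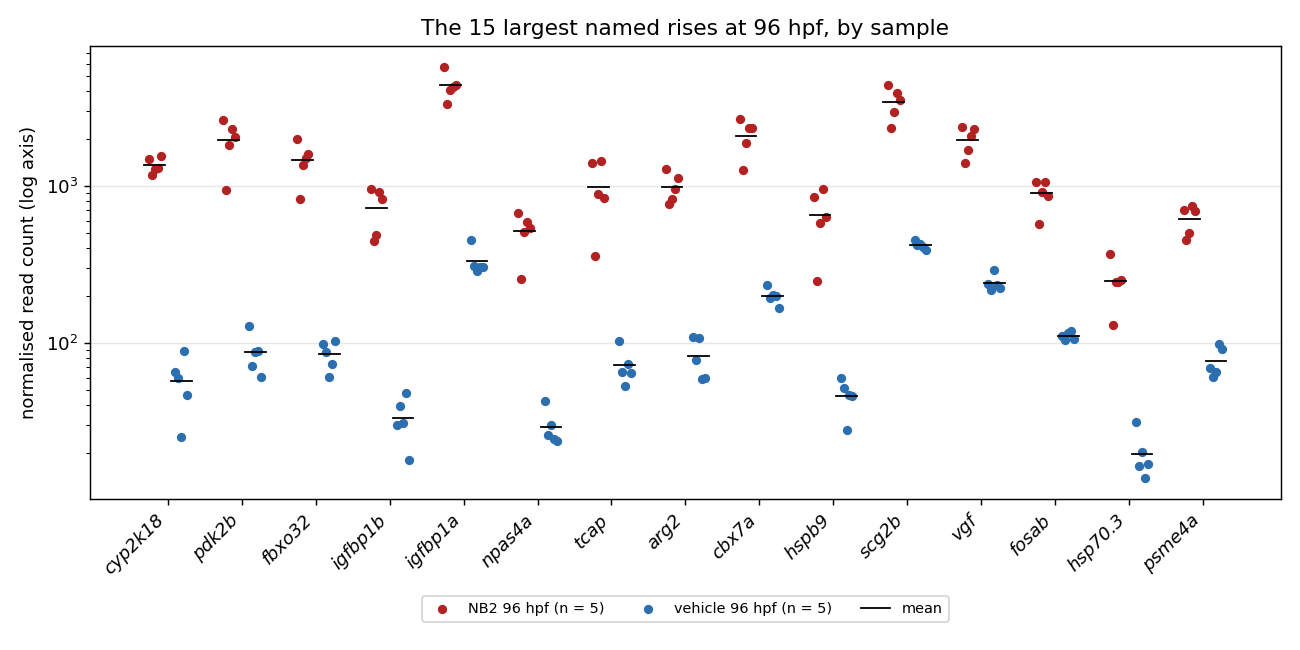
Normalised read counts at 96 hpf of genes with large rises, on a log axis, with 1 point per sample and a bar at the mean, NB2 larvae left of vehicle larvae. The genes were chosen for groups that do not overlap, so all 5 NB2 samples lie above all 5 vehicle samples in each. For fbxo32 the means are 1451 in NB2 larvae and 84.9 in vehicle larvae.

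Most of the genes of fasting and glucose production rose. Among fasting and gluconeogenesis genes 22 of 35 tested members were higher (62.9%) and 1 lower (2.86%), with a median difference of 0.55, against 8.22% higher, 10.2% lower and a median of -0.02 over all genes. pck1, which encodes the enzyme that opens gluconeogenesis, had 2521, 1295, 1707, 2277 and 1875 in NB2 larvae, against 428, 284, 367, 289.9 and 286 in vehicle larvae. All 5 NB2 samples exceeded all vehicle samples (difference 2.45 ± 0.16, limma adjusted p = 1.00e-14). Among genes chosen later, the glucocorticoid-responsive genes fkbp5, a chaperone partner of the receptor, and klf9, a transcription factor, differed by 2.11 ± 0.29 and 1.83 ± 0.22. Also chosen later, foxo1a, the transcription factor that insulin keeps out of the nucleus, differed by 0.92 ± 0.10, irs2b, an adaptor of the insulin receptor, by 1.46 ± 0.12, and the salt-inducible kinase gene sik1 by 1.68 ± 0.20. The lower member was igfbp5b (-0.23, chosen later). The limma call was lost for igfbp5b without NB2 C, NB2 E, vehicle B or vehicle C (adjusted p = 0.0576 to 0.103).

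Of the genes of fatty acid burning, those that passed the test were all higher. Among fatty acid oxidation genes and PPAR targets 20 of 47 tested members were higher (42.6%) and 0 lower (by limma, with 1 at an unadjusted p below 0.05 and 0 called by voom), with a median difference of 0.25. The uncoupling protein genes ucp1 and ucp2, which encode mitochondrial carriers, averaged 3932 ± 727 in NB2 larvae and 1038 ± 181 in vehicle larvae for ucp1 and 1521 ± 245 in NB2 larvae and 438 ± 60.1 in vehicle larvae for ucp2 (differences 1.89 ± 0.13 and 1.74 ± 0.12). Chosen later, ucp3 differed by 2.46 ± 0.25, pdk4, a kinase of pyruvate dehydrogenase, by 1.13 ± 0.13, cpt1b, which carries fatty acids into mitochondria, by 1.26 ± 0.17, and angptl4, a PPAR target that inhibits lipoprotein lipase, by 0.78 ± 0.15. Among genes of fatty acid and triglyceride synthesis 4 of 24 tested members were higher (16.7%) and 0 lower (by limma, with 0 at an unadjusted p below 0.05 and 0 called by voom), with a median difference of 0.01. These 4 were lpin1a, a phosphatidate phosphatase (1.65 ± 0.17), acacb, an acetyl-CoA carboxylase (0.90 ± 0.10), scd, the stearoyl-CoA desaturase (0.92 ± 0.20), and, chosen later, me1, the malic enzyme (0.55 ± 0.17). A limma call was lost for me1 without NB2 B, NB2 E, vehicle A, vehicle B or vehicle C (adjusted p = 0.051 to 0.0779). In the cholesterol synthesis list 2 of 26 tested members were higher (7.69%) and 1 lower (3.85%), with a median difference of -0.12. Both shares were below those over all genes (8.22% higher and 10.2% lower). The 2 higher members were hmgcrb, the rate-limiting reductase (0.58 ± 0.10), and ldlra, the low-density lipoprotein receptor (0.48 ± 0.12), and the lower was sc5d, a sterol desaturase (-0.62 ± 0.15).

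Of the genes of amino acid breakdown, more rose than fell. In their list 22 of 58 tested members were higher (37.9%) and 3 lower (5.17%), with a median difference of 0.28. tdo2b, which encodes tryptophan dioxygenase of the liver, averaged 117 ± 40 in NB2 larvae and 24 ± 4.48 in vehicle larvae (difference 1.59 ± 0.18, limma adjusted p = 1.70e-08). cbsb, of the cystathionine pathway, averaged 553 ± 67.8 in NB2 larvae and 269.8 ± 22.4 in vehicle larvae (difference 0.97 ± 0.10). Chosen later, agxtb, an alanine-glyoxylate aminotransferase, differed by 1.69 ± 0.28, gls2a, a glutaminase, by 1.53 ± 0.21, and tat, tyrosine aminotransferase, by 1.1 ± 0.21. The 3 lower members, also chosen later, were sardh (-0.82), amdhd1 (-0.63) and aldh6a1 (-0.22). The call by limma was lost for amdhd1 without NB2 E or vehicle C (adjusted p = 0.0661 to 0.0677) and for aldh6a1 without NB2 A, NB2 E, vehicle A, vehicle B, vehicle C or vehicle D (adjusted p = 0.0548 to 0.121).

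Lipoprotein genes moved in both directions. In their list 9 of 35 tested members were higher (25.7%) and 7 lower (20%), with a median difference of 0.00. apoba, which encodes an apolipoprotein B, had 200.1, 321, 271, 355 and 278 in NB2 larvae, against 579.9, 726, 746, 594 and 657 in vehicle larvae. Vehicle larvae averaged 2.32 times the level of NB2 larvae (difference -1.16 ± 0.09, limma adjusted p = 1.44e-12). lipg, an endothelial lipase, averaged 297 ± 76 in NB2 larvae and 93.9 ± 16.1 in vehicle larvae (difference 1.43 ± 0.15). The apolipoprotein E paralogs moved apart: apoeb differed by 0.92 ± 0.10 and apoea, chosen later, by -0.67 ± 0.16. Also chosen later, apoa4a differed by -0.88 ± 0.20, and lpla, a lipoprotein lipase, by 1.04 ± 0.17.

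The liver secretes most plasma proteins, and its genes did not move as 1 group. Among hepatocyte secreted proteins 6 of 28 tested members were higher (21.4%) and 3 lower (10.7%), with a median difference of 0.09. For this list and the bile acid list below, the shares over all genes were 8.22% higher and 10.2% lower. The hepatocyte marker genes fabp10a and apoa1b did not pass the test (differences 0.18 and -0.23, limma adjusted p = 0.607 and 0.131). f5, coagulation factor V, averaged 678 ± 87.2 in NB2 larvae and 309.7 ± 48 in vehicle larvae (difference 1.08 ± 0.12), and fgb, a fibrinogen chain, averaged 920.4 ± 81.6 in NB2 larvae and 498 ± 64.3 in vehicle larvae (difference 0.86 ± 0.13). tfa, transferrin, had 2316, 2526, 2684, 3069.6 and 1739.7 in NB2 larvae, against 3939.8, 4334, 4443, 4622 and 3550.3 in vehicle larvae. Its difference was -0.77 ± 0.10 (limma adjusted p = 7.86e-08), and the other 2 lower members, chosen later, were the protease inhibitor genes serpina1 (-0.52) and serpina1l (-0.50). In the bile acid list 3 of 18 tested members were higher (16.7%) and 1 lower (5.56%), with a median difference of 0.12, the higher members being abcb4 (1.06), fabp6 (0.81) and slc51a (0.72) and the lower cyp7a1 (-0.57, chosen later), the rate-limiting enzyme of bile acid synthesis. The limma calls were lost for serpina1l without NB2 A, NB2 C, NB2 E, vehicle B or vehicle C (adjusted p = 0.0521 to 0.0941) and for cyp7a1 without NB2 B, NB2 C, NB2 E, vehicle B, vehicle C or vehicle D (adjusted p = 0.0792 to 0.137). In bulk samples of whole larvae, fewer cells of a type and less RNA per cell cannot be told apart, here and in the tissue lists that follow.

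Complement genes were called lower more often than higher. In the complement and acute phase list 3 of 25 tested members were higher (12%) and 7 lower (28%), with a median difference of -0.17. c9 averaged 657 ± 157 in NB2 larvae and 951 ± 135 in vehicle larvae and c8b 40.5 ± 21.9 in NB2 larvae and 72.3 ± 19 in vehicle larvae, both subunits of the membrane attack complex (differences -0.54 ± 0.10 and -0.65 ± 0.17). The groups overlapped for c8b. c4b, of the classical pathway, was higher (difference 0.93 ± 0.15), as were, chosen later, the hepcidin gene hamp (0.72) and c3a.6 (0.51), 1 of several C3 genes with similar sequence. The count of 7 lower members fell to 4 without NB2 A or without vehicle B, and to 3 when only the 96 hpf samples were fitted. The limma call was lost for hamp without NB2 E (adjusted p = 0.0508) and for c3a.6 without NB2 B, NB2 D, vehicle B or vehicle C (adjusted p = 0.0504 to 0.0872).

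Genes of xenobiotic metabolism rose more often than they fell. In the list 11 of 50 tested members were higher (22%) and 3 lower (6%), with a median difference of 0.16, against 8.22% higher and 10.2% lower over all genes. cyp3a65, a P450 of liver and gut, averaged 2194 ± 193 in NB2 larvae and 459.9 ± 121 in vehicle larvae (difference 2.23 ± 0.19, limma adjusted p = 9.38e-12). cyp2aa8 fell more than any other gene named by size, with 13, 29, 37, 49.3 and 33.8 in NB2 larvae, against 192, 208, 261, 213 and 171 in vehicle larvae. No NB2 sample reached the lowest vehicle sample (difference -2.14 ± 0.15, limma adjusted p = 1.23e-13). Chosen later, its neighbour in name cyp2aa9 differed by -0.82 ± 0.16, the sulfotransferase gene sult2st2 by -0.47 ± 0.10, cyp2y3 by 0.93 ± 0.10, and nr1i2, the pregnane X receptor that senses foreign compounds, by 0.77 ± 0.12.

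Most of the chaperone genes listed rose. In the heat shock list 17 of 31 tested members were higher (54.8%) and 2 lower (6.45%), with a median difference of 0.49. hsp90aa1.2, which encodes a heat-inducible HSP90, had 5602, 4329.9, 5893, 4222 and 5977 in NB2 larvae, against 1550.1, 1219, 1261, 1296 and 1152 in vehicle larvae. The groups lay apart (difference 1.98 ± 0.08, limma adjusted p = 3.03e-20). hsp90aa1.1, the muscle form, averaged 1132 ± 70.4 in NB2 larvae and 454 ± 80 in vehicle larvae (difference 1.29 ± 0.09). Chosen later, the HSP70 copies hsp70l and hsp70.1 differed by 2.51 ± 0.23 and 2.27 ± 0.21, and reads may be split among them and hsp70.3. The 2 lower members, chosen later, were serpinh1b, the collagen chaperone (-0.60 ± 0.11), and st13, a partner of HSP70 (-0.47 ± 0.09).

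Genes of the integrated stress response, in which ATF4 answers amino acid shortage or unfolded protein, also rose more often than they fell. In their list 20 of 39 tested members were higher (51.3%) and 1 lower (2.56%), with a median difference of 0.50. chac1, an ATF4 target that breaks down glutathione, had 5993, 3416, 5245, 5098 and 6461 in NB2 larvae, against 1291, 821, 1023, 959 and 1082 in vehicle larvae. All 5 NB2 samples were above all vehicle samples (difference 2.30 ± 0.15, limma adjusted p = 3.02e-14). eif4ebp3l, a brake on translation, averaged 1008 ± 187 in NB2 larvae and 312 ± 31 in vehicle larvae, and slc3a2b, a subunit of amino acid transporters, averaged 916 ± 186 in NB2 larvae and 299 ± 28.3 in vehicle larvae (differences 1.60 ± 0.11 and 1.52 ± 0.12). Chosen later, atf3 differed by 2.16 ± 0.23, trib3 by 1.79 ± 0.14, ddit3, which encodes CHOP, by 1.28 ± 0.11, and atf4a by 0.67 ± 0.09, while the paralog slc3a2a was the lower member (-0.58 ± 0.16).

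The unfolded protein response of the endoplasmic reticulum, which answers protein overload there, had fewer called members. In its list 9 of 31 tested members were higher (29%) and 1 lower (3.23%), with a median difference of 0.19. dnajb9b, a chaperone partner there, averaged 25.6 ± 11.3 in NB2 larvae and 1.5 ± 1.47 in vehicle larvae (difference 1.51 ± 0.20). xbp1, its transcription factor, differed by 0.49 ± 0.07, and ssr2, of the translocon, by 0.33 ± 0.06. The lower member, chosen later, was pdia2, a disulfide isomerase of the exocrine pancreas that is also in the list of that tissue (-0.76 ± 0.19). Among p53 targets 11 of 24 tested members were higher (45.8%) and 2 lower (8.33%), with a median difference of 0.40. pmaip1, which encodes the cell death protein NOXA, averaged 285 ± 96.2 in NB2 larvae and 41.9 ± 8.77 in vehicle larvae (difference 2.22 ± 0.19, limma adjusted p = 1.84e-11), btg2, which slows division, averaged 1142 ± 280.1 in NB2 larvae and 307 ± 40.9 in vehicle larvae (difference 1.79 ± 0.14), and tp53inp1 differed by 0.85 ± 0.06. Chosen later, cdkn1a, the p21 inhibitor of cell division, differed by 0.60 ± 0.18, and the 2 lower members were gtse1 (-0.77) and sesn3 (-0.64).

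Most members of the NRF2 list, of antioxidant defence, and of the lysosome list rose. Among NRF2 genes 20 of 39 tested members were higher (51.3%) and 2 lower (5.13%), with a median difference of 0.40. sqstm1, which encodes the autophagy receptor p62, had 1006, 510.1, 555, 769 and 906 in NB2 larvae, against 179.9, 126, 106, 115 and 126 in vehicle larvae. The groups lay apart (difference 2.30 ± 0.16, limma adjusted p = 7.14e-14). fthl27, a ferritin heavy chain gene, averaged 2547 ± 144 in NB2 larvae and 999.8 ± 41.1 in vehicle larvae, and abcc2, an exporter of conjugates, averaged 620.3 ± 42.4 in NB2 larvae and 243 ± 26.7 in vehicle larvae (differences 1.33 ± 0.08 and 1.27 ± 0.11). Chosen later, gstp1.1, a glutathione transferase, differed by 1.78 ± 0.28 and nfe2l2a, which encodes NRF2, by 0.54 ± 0.08, while the 2 lower members were cat, catalase (-0.45 ± 0.11), and prdx2, a peroxiredoxin of red cells (-0.32 ± 0.09). Among lysosome and autophagy genes 27 of 42 tested members were higher (64.3%) and 0 lower (by limma, with 0 at an unadjusted p below 0.05 and 0 called by voom), with a median difference of 0.46. gnsb, a lysosomal sulfatase, averaged 798 ± 127 in NB2 larvae and 301 ± 48.5 in vehicle larvae, and lamp1a, of the lysosome membrane, averaged 1427 ± 139 in NB2 larvae and 587 ± 46.8 in vehicle larvae (differences 1.34 ± 0.10 and 1.24 ± 0.10). Chosen later, ctsba, cathepsin B, differed by 1.14 ± 0.16.

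In the proteasome list 13 of 43 tested members were higher (30.2%) and 0 lower (by limma, with 0 at an unadjusted p below 0.05 and 0 called by voom), with a median difference of 0.16. psmd11b, psmb7 and psmd13 differed by 0.66 ± 0.10, 0.43 ± 0.07 and 0.36 ± 0.07. The count of 13 was 8 without NB2 C and 6 without vehicle D. Among nuclear genes of the respiratory chain 18 of 88 tested members were higher (20.5%) and 0 lower (by limma, with 0 at an unadjusted p below 0.05 and 0 called by voom), with a median difference of 0.13. The members with the smallest p were the complex III genes cyc1 (0.43), uqcrfs1 (0.38) and uqcrh (0.32), while the largest difference in the list was 0.65. That count of 18 was 11 without NB2 C and 11 without vehicle D, 9 with no mean trend in the fit and 33 on log2(CPM + 1). Among genes of the mitochondrial genome 0 of 13 tested members were higher (by limma, with 0 at an unadjusted p below 0.05 and 0 called by voom) and 6 lower (46.2%), with a median difference of -0.25. The members with the smallest p were the complex I genes ND1 (-0.36), ND4 (-0.42) and ND5 (-0.41), while the lowest difference in the list was -0.53. Those 6 were 1 without NB2 E, 2 without NB2 C, 2 without vehicle B, 3 without vehicle C and 0 with no mean trend. A limma call was lost for ND1 without NB2 E (adjusted p = 0.0541), for ND4 without NB2 E (adjusted p = 0.0665) and for ND5 without NB2 C or vehicle B (adjusted p = 0.0516 to 0.0729).

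Immediate early genes, which neurons and other cells switch on within minutes of a stimulus, had the largest median of all 51 lists. In this list 23 of 36 tested members were higher (63.9%) and 1 lower (2.78%), with a median difference of 0.94. At 72 hpf 11 of its members were already called higher, an age at which 0.479% of all genes were called higher. npas4a, a transcription factor of active neurons, had 667, 257, 509, 591 and 542 in NB2 larvae, against 42.5, 25.9, 29.8, 24.4 and 23.8 in vehicle larvae. No vehicle sample reached the lowest NB2 sample, which was again B (difference 3.35 ± 0.29, limma adjusted p = 1.71e-11). fosab, a FOS gene, averaged 895 ± 203 in NB2 larvae and 111 ± 5.98 in vehicle larvae, and junba, which dimerises with FOS, averaged 260.3 ± 53.6 in NB2 larvae and 62.3 ± 10.4 in vehicle larvae (differences 2.74 ± 0.29 and 1.73 ± 0.16). Chosen later, fosb, nr4a3 and egr4 differed by 2.66 ± 0.26, 2.27 ± 0.24 and 2.0 ± 0.22, and the lower member was klf2b, a transcription factor gene of the KLF family (-0.37 ± 0.10).

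The granin genes scg2b and vgf, precursors of neuropeptides in secretory vesicles, were among the 15 largest rises. scg2b had 4414, 2319, 2933, 3902 and 3519 in NB2 larvae, against 449, 418, 423, 406 and 393 in vehicle larvae. vgf had 2366, 1402, 1678, 2085 and 2293 in NB2 larvae, against 239, 219, 289.6, 232 and 223 in vehicle larvae. In both genes the groups lay apart (differences 2.93 ± 0.14 and 2.89 ± 0.18, limma adjusted p = 7.23e-18 for scg2b and 4.81e-15 for vgf). Among clock genes 10 of 35 tested members were higher (28.6%) and 3 lower (8.57%), with a median difference of 0.26. per2, which is switched on by light, averaged 164 ± 41.7 in NB2 larvae and 63.3 ± 17.8 in vehicle larvae (difference 1.12 ± 0.19), and the repressor genes nr1d2a and bhlhe40 differed by 0.94 ± 0.14 and 0.71 ± 0.11. The 3 lower members, chosen later, were rorcb (-0.46), clocka (-0.31) and roraa (-0.16). The call by limma was lost for roraa without NB2 D, NB2 E, vehicle B, vehicle C or vehicle D (adjusted p = 0.069 to 0.111).

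Most of the inflammatory genes listed rose. Among genes of cytokines and inflammation 20 of 31 tested members were higher (64.5%) and 1 lower (3.23%), with a median difference of 0.64. cebpd, a transcription factor of the acute phase response, had 1614, 885, 1382, 1333 and 1323 in NB2 larvae, against 286, 276, 369, 273 and 376 in vehicle larvae. The groups did not overlap (difference 1.96 ± 0.15, limma adjusted p = 1.20e-12). junbb averaged 782 ± 212 in NB2 larvae and 225 ± 8.81 in vehicle larvae (difference 1.65 ± 0.15). Chosen later, irg1l, an itaconate-making enzyme of inflamed skin and macrophages, differed by 2.01 ± 0.26, socs3a, the feedback inhibitor of cytokine signals, by 1.92 ± 0.20, il11a, an interleukin of injury, by 1.38 ± 0.24 and stat3 by 1.08 ± 0.12. The lower member was the chemokine gene cxcl12a (-0.31 ± 0.07, chosen later).

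Among genes of neutrophils and macrophages 9 of 34 tested members were higher (26.5%) and 0 lower (by limma, with 0 at an unadjusted p below 0.05 and 0 called by voom), with a median difference of 0.17. For this list and the interferon list below, the shares over all genes were 8.22% higher and 10.2% lower. mmp9, a matrix protease of neutrophils and injured tissue, averaged 175 ± 53 in NB2 larvae and 35.5 ± 5.77 in vehicle larvae (difference 1.75 ± 0.19), cebpb averaged 695 ± 134 in NB2 larvae and 245 ± 45 in vehicle larvae (difference 1.42 ± 0.13), and ctss2.2, a cathepsin S gene, differed by 1.26 ± 0.20. The neutrophil marker mpx averaged 18.9 ± 7.62 in NB2 larvae and 15.8 ± 3.0 in vehicle larvae and did not pass the test (difference 0.11 ± 0.18, limma adjusted p = 0.762), nor did lyz (difference -0.23 ± 0.26, limma adjusted p = 0.637). Both were chosen later. The macrophage marker csf1ra did not pass the test either (difference -0.007, limma adjusted p = 0.991). In the interferon list 5 of 37 tested members were higher (13.5%) and 0 lower (by limma, with 0 at an unadjusted p below 0.05 and 0 called by voom), with a median difference of 0.06, and the 5 were isg15 (1.25 ± 0.21), irf7 (1.0 ± 0.21), stat1b (0.81 ± 0.20) and, chosen later, irf1b (0.72 ± 0.19) and isg20 (0.50 ± 0.17). Among lymphocyte and thymus genes 0 of 34 tested members were higher (by limma, with 1 at an unadjusted p below 0.05 and 1 called by voom) and 4 lower (11.8%), with a median difference of -0.04, the 4 being the transcription factor genes tox (-0.50), lef1 (-0.39) and bcl11ba (-0.36) and, chosen later, bcl11bb (-0.42). The share of 11.8% was near the 10.2% called lower over all genes. The lymphocyte marker gene rag1 did not pass the test (difference -0.16, limma adjusted p = 0.691), and lck had reads in only 2 of the 10 samples. In vehicle larvae tox had 1817 to 2059, against 2.98 to 15.4 for rag1. In which cells the 4 genes fell was not tested. By limma the call was lost for isg20 without NB2 C, NB2 D, vehicle A, vehicle C or vehicle E (adjusted p = 0.0603 to 0.127).

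Annexin genes, which encode membrane-binding proteins, split. In the list 3 of 16 tested members were higher (18.8%) and 3 lower (18.8%), with a median difference of -0.09. anxa1c, an annexin of skin, averaged 257 ± 34.1 in NB2 larvae and 720.4 ± 71.5 in vehicle larvae (difference -1.41 ± 0.09), and anxa1d differed by -1.10 ± 0.12. The paralog anxa1b went the other way, with 237 ± 65.8 in NB2 larvae and 74.3 ± 18.7 in vehicle larvae (difference 1.41 ± 0.16). Chosen later, the gut annexin genes anxa13 and anxa13l differed by 0.40 ± 0.10 and 0.45 ± 0.12, and anxa1a by -0.27 ± 0.09. The limma call was lost for anxa1a without NB2 A, NB2 C, NB2 E, vehicle A, vehicle B or vehicle E (adjusted p = 0.0652 to 0.138).

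Glycolysis and hypoxia genes rose more often than they fell. In their list 31 of 54 tested members were higher (57.4%) and 3 lower (5.56%), with a median difference of 0.41. slc2a3a, which encodes a glucose transporter, had 2803, 2073, 2538, 2748 and 2530.4 in NB2 larvae, against 822, 735, 758, 639 and 699 in vehicle larvae. All NB2 samples exceeded all vehicle samples (difference 1.76 ± 0.10, limma adjusted p = 3.55e-16). higd1a, a hypoxia-inducible mitochondrial protein gene, averaged 719 ± 156 in NB2 larvae and 157 ± 31 in vehicle larvae, and ndrg1b, another hypoxia-inducible gene, averaged 326 ± 48.9 in NB2 larvae and 98.2 ± 12.2 in vehicle larvae (differences 2.03 ± 0.16 and 1.52 ± 0.12). Chosen later, slc16a3b, a lactate exporter, differed by 1.54 ± 0.14, aldoaa, an aldolase of muscle, by 1.30 ± 0.12 and egln3, an oxygen sensor, by 1.25 ± 0.14. The 3 lower members, also chosen later, were pklr, the pyruvate kinase of liver (-0.60), pfklb, the liver phosphofructokinase (-0.46), and eno1b, an enolase (-0.45). A limma call was lost for pfklb without NB2 B, NB2 E, vehicle A, vehicle C or vehicle E (adjusted p = 0.0674 to 0.164) and for eno1b without NB2 A, NB2 B, NB2 D, NB2 E, vehicle A, vehicle B, vehicle C, vehicle D or vehicle E (adjusted p = 0.0604 to 0.105).

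Genes of ionocytes, the skin cells that pump ions between larva and water, rose in part. In their list 22 of 52 tested members were higher (42.3%) and 3 lower (5.77%), with a median difference of 0.35. rhcgb, the ammonia channel of proton-pumping ionocytes, had 483, 276, 309.8, 339 and 359 in NB2 larvae, against 55.2, 82.9, 80.8, 72.3 and 100.2 in vehicle larvae. The groups lay apart (difference 1.89 ± 0.20, limma adjusted p = 2.64e-09). The sodium pump subunits atp1b1b and atp1b1a differed by 1.39 ± 0.10 and 0.83 ± 0.08. Chosen later, rhcga differed by 1.80 ± 0.28 at 96 hpf and by 2.35 ± 0.28 at 72 hpf, and the 3 lower members were slc8a1b (-0.34), esrrga (-0.21) and slc12a2 (-0.18). The call by limma was lost for slc12a2 without NB2 A (adjusted p = 0.0831).

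Hormone genes of the islet and pituitary rose in part. In their list 8 of 25 tested members were higher (32%) and 2 lower (8%), with a median difference of 0.26. sst1.1, the main somatostatin gene, averaged 499.7 ± 124 in NB2 larvae and 133 ± 13.8 in vehicle larvae (difference 1.72 ± 0.15, limma adjusted p = 1.38e-11). dio3b, which inactivates thyroid hormone, averaged 1230.4 ± 234 in NB2 larvae and 461 ± 100.1 in vehicle larvae (difference 1.37 ± 0.13). smtlb, the somatolactin gene of the pituitary, had 78 recovered reads over the 5 NB2 samples and 0 over the 5 vehicle samples, so it was at least 29.4-fold higher in NB2 larvae against a floor of 3 reads over the vehicle group, counting error only. Chosen later, pomca, the precursor of stress hormones and melanocortins, differed by 1.20 ± 0.17, gh1, growth hormone, by 0.77 ± 0.20, and the 2 lower members were neurod1 (-0.24) and pax6b (-0.24). The limma calls were lost for neurod1 without NB2 A, NB2 B, NB2 E, vehicle B, vehicle C or vehicle D (adjusted p = 0.0698 to 0.215) and for pax6b without NB2 A, NB2 E, vehicle A, vehicle B or vehicle E (adjusted p = 0.052 to 0.126).

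More intestinal genes were called higher than lower. In the list 7 of 36 tested members were higher (19.4%) and 1 lower (2.78%), with a median difference of 0.10. anpepb.1, a brush border peptidase, averaged 420.1 ± 68.6 in NB2 larvae and 177 ± 36 in vehicle larvae, and chia.2, a chitinase, averaged 621 ± 86.8 in NB2 larvae and 267 ± 39.5 in vehicle larvae (differences 1.15 ± 0.19 and 1.15 ± 0.17). The 2 peptide transporter paralogs, chosen later, moved apart, with 1.04 ± 0.18 for slc15a1b and -0.64 ± 0.19 for slc15a1a. The gut marker gene vil1 did not pass the test (difference -0.18, limma adjusted p = 0.466). Nor did the marker fabp2 (difference 0.04, limma adjusted p = 0.894). fabp2 had reads in 4 of the 10 samples and at most 2.16 in any, too few to judge its level. In the exocrine pancreas list 2 of 28 tested members were higher (7.14%) and 3 lower (10.7%), with a median difference of -0.07: pla2g1b was among the higher (1.17), and cel.2, prss59.1 and pdia2 were lower (-1.15, -0.78 and -0.76). Both shares were near those over all genes (8.22% higher and 10.2% lower).

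**Figure D3:**
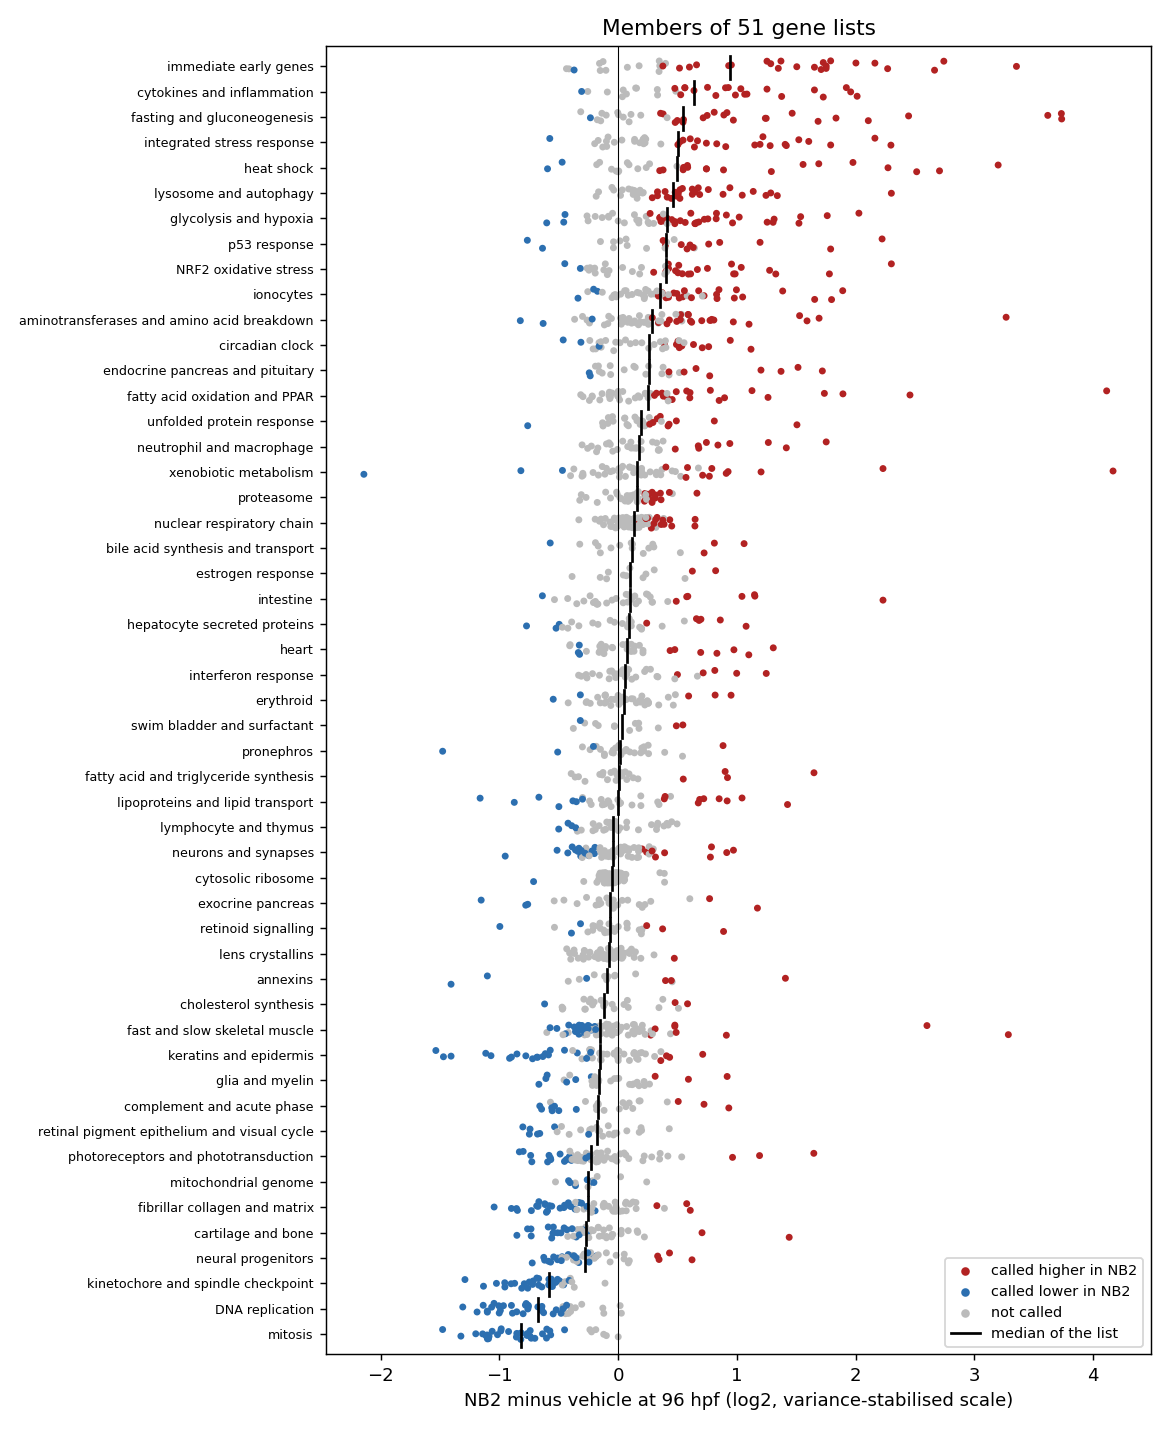
Differences between NB2 and vehicle larvae at 96 hpf (x axis, log2 of deposited values) for the tested members of each gene list (y axis), with 1 point per gene and a bar at the median. Immediate early genes have the largest median (0.94) and genes of mitosis the smallest (-0.82).

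Most genes of cell division fell, and none was called higher by limma. Among genes of the kinetochore and spindle checkpoint 0 of 36 tested members were higher (by limma, with 0 at an unadjusted p below 0.05 and 0 called by voom) and 30 lower (83.3%), with a median difference of -0.58. In the mitosis list 0 of 39 tested members were higher (by limma, with 0 at an unadjusted p below 0.05 and 0 called by voom) and 33 lower (84.6%), with a median difference of -0.82, and in the DNA replication list 0 of 43 tested members were higher (by limma, with 0 at an unadjusted p below 0.05 and 0 called by voom) and 32 lower (74.4%), with a median difference of -0.68. These shares stood beside 10.2% lower over all genes. mki67, which encodes the proliferation marker Ki-67, had 267, 365, 351, 364 and 282 in NB2 larvae, against 869, 1013, 933, 999 and 911 in vehicle larvae. Each NB2 sample lay below every vehicle sample, and vehicle larvae had 2.90 times the mean of NB2 larvae (difference -1.48 ± 0.08, limma adjusted p = 6.81e-17).

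The kinetochore is the protein plate by which a chromosome holds its spindle fibres. cenpf, a large outer kinetochore protein gene, averaged 209.9 ± 38.8 in NB2 larvae and 543 ± 40.2 in vehicle larvae (difference -1.29 ± 0.09), and cenpi, of the inner plate, averaged 62.7 ± 6.65 in NB2 larvae and 164 ± 19.6 in vehicle larvae (difference -1.13 ± 0.09). nuf2 encodes a subunit of the Ndc80 complex, which grips the microtubule, and it averaged 94.7 ± 11.8 in NB2 larvae and 215 ± 8.79 in vehicle larvae (difference -1.03 ± 0.09). The other 3 subunits, chosen later, differed by -0.69 ± 0.15 for ndc80, -0.79 ± 0.18 for spc24 and -0.96 ± 0.13 for spc25. Also chosen later, cenpe, a kinetochore motor, differed by -0.95 ± 0.09, and ttk, the checkpoint kinase MPS1, by -0.87 ± 0.12.

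tpx2, which builds spindle microtubules, had 197, 242, 221, 223 and 241 in NB2 larvae, against 562, 640.0, 634, 615 and 539.8 in vehicle larvae. The groups did not overlap (difference -1.32 ± 0.07, limma adjusted p = 1.01e-17). kif11, the motor that separates the spindle poles, averaged 43.9 ± 4.25 in NB2 larvae and 128 ± 11.5 in vehicle larvae (difference -1.20 ± 0.10), and incenp, of the chromosomal passenger complex, averaged 225 ± 40.7 in NB2 larvae and 503 ± 39.8 in vehicle larvae (difference -1.09 ± 0.08). Chosen later, ccna2, cyclin A, differed by -1.06 ± 0.11, top2a, the topoisomerase of dividing cells, by -1.14 ± 0.09 and aspm, of the spindle pole, by -1.10 ± 0.10. stmn1a, a regulator of microtubules in dividing cells and neurons, averaged 310.2 ± 63.1 in NB2 larvae and 888 ± 62.4 in vehicle larvae (difference -1.47 ± 0.09).

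Among replication genes, mcm2, a subunit of the helicase that opens DNA, had 138, 156, 138, 108 and 129 in NB2 larvae, against 374, 392, 396, 335 and 327 in vehicle larvae. Again the groups lay apart (difference -1.31 ± 0.09, limma adjusted p = 3.18e-14). mcm6 differed by -1.07 ± 0.08, and the other helicase subunits, chosen later, by -1.10 ± 0.11 for mcm3, -0.68 ± 0.10 for mcm4, -1.14 ± 0.10 for mcm5 and -0.76 ± 0.09 for mcm7, so all 6 were called. pcna, the sliding clamp of the polymerase, averaged 556 ± 83.3 in NB2 larvae and 1290.2 ± 89.3 in vehicle larvae (difference -1.19 ± 0.08). cdca7a, a chromatin factor of S phase, averaged 53.9 ± 23.7 in NB2 larvae and 193 ± 17.4 in vehicle larvae (difference -1.56 ± 0.15). Chosen later, dnmt1, which copies DNA methylation, differed by -1.0 ± 0.12 and slbp, which binds histone messages, by -1.01 ± 0.11. hist1h4l, 1 of many near-identical histone H4 genes and so of uncertain source, averaged 180.0 ± 30.8 in NB2 larvae and 601 ± 122 in vehicle larvae (difference -1.61 ± 0.20).

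**Figure D4:**
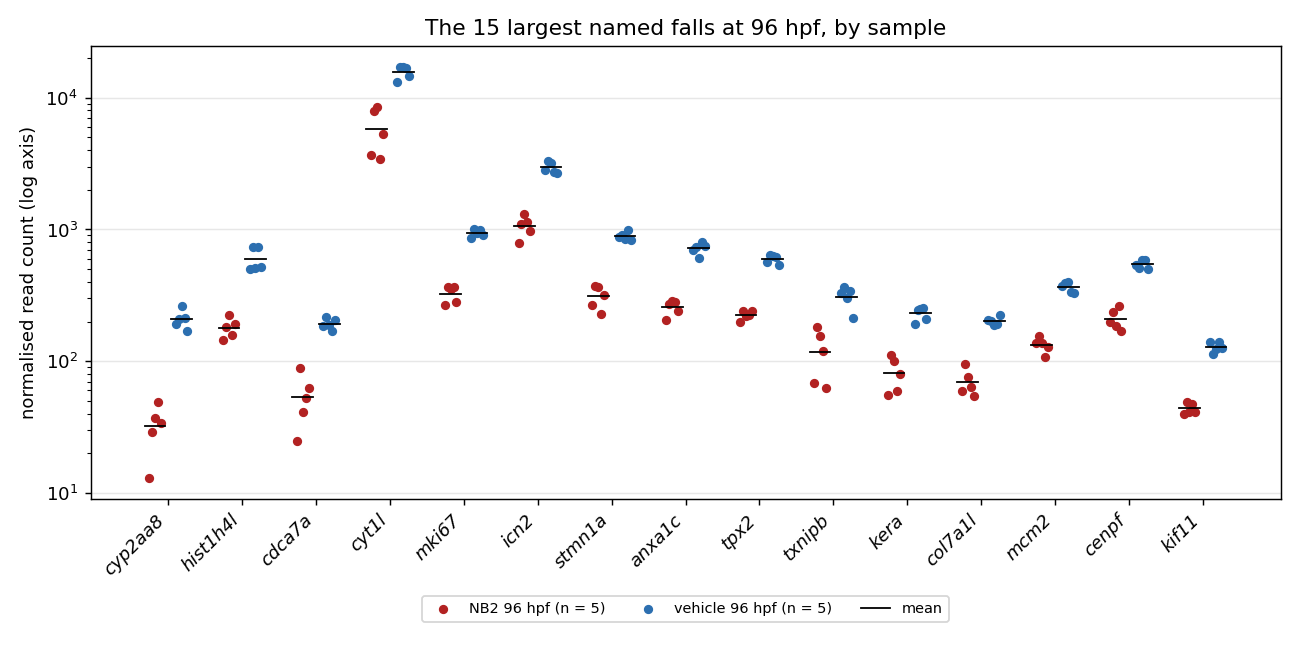
Normalised read counts at 96 hpf of genes with large falls, on a log axis, with 1 point per sample and a bar at the mean, NB2 larvae left of vehicle larvae. The genes were chosen for groups that do not overlap, so all 5 NB2 samples lie below all 5 vehicle samples in each. For mki67 the means are 326 in NB2 larvae and 945 in vehicle larvae.

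Epidermal genes fell more often than they rose. Among keratin and epidermis genes 4 of 58 tested members were higher (6.9%) and 20 lower (34.5%), with a median difference of -0.15. icn2, which encodes an S100 protein of the skin and has the close copy icn, had 787, 1103, 1313, 1134 and 972 in NB2 larvae, against 2835, 3323, 3199, 2744 and 2692 in vehicle larvae. No NB2 sample reached the vehicle range (difference -1.47 ± 0.10, limma adjusted p = 9.87e-14). The keratin gene cyt1l, which has similar copies, averaged 5769.9 ± 2359 in NB2 larvae and 15737 ± 1815 in vehicle larvae (difference -1.54 ± 0.17), and ppl, periplakin of the cell envelope, averaged 660.4 ± 39.8 in NB2 larvae and 1257 ± 139 in vehicle larvae (difference -0.90 ± 0.08). col7a1l, a gene of the collagen VII type that anchors skin to its base, averaged 69.4 ± 16.1 in NB2 larvae and 202 ± 14.7 in vehicle larvae (difference -1.31 ± 0.10). Chosen later, krt4, the surface layer keratin, differed by -1.12 ± 0.11, evpla, envoplakin, by -0.92 ± 0.09 and dspb, desmoplakin, by -0.78 ± 0.08. The 4 higher members, also chosen later, were elf3 (0.71), cldn23.1 (0.43), krt96 (0.41) and cldne (0.36). The limma call was lost for krt96 without NB2 B, NB2 C, NB2 D, NB2 E, vehicle A, vehicle B, vehicle D or vehicle E (adjusted p = 0.0515 to 0.164). The epidermal marker gene krt5 did not pass the test (difference -0.14, limma adjusted p = 0.681). It had reads in 3 of the 10 samples and at most 1.98 in any, too few to judge its level.

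Collagen and matrix genes fell more often than they rose. Among genes of fibrillar collagen and matrix 3 of 58 tested members were higher (5.17%) and 27 lower (46.6%), with a median difference of -0.26. col1a1b, a chain of collagen I, had 6329, 8184, 7774, 7166 and 5882 in NB2 larvae, against 11307, 11589, 11614, 10454 and 10885 in vehicle larvae. The groups did not overlap (difference -0.67 ± 0.07, limma adjusted p = 3.75e-10). and1, which encodes actinodin of the fin fold, averaged 1175 ± 254 in NB2 larvae and 2418 ± 257 in vehicle larvae, and postnb, periostin, averaged 2728 ± 429.9 in NB2 larvae and 4506 ± 194 in vehicle larvae (differences -1.05 ± 0.10 and -0.73 ± 0.07). The 3 higher members, chosen later, were fn1b (0.61), loxa (0.58) and mmp14b (0.33). kera, keratocan of the cornea, averaged 81.4 ± 24.6 in NB2 larvae and 230.4 ± 28.2 in vehicle larvae (difference -1.31 ± 0.12). A limma call was lost for loxa without NB2 A or vehicle C (adjusted p = 0.0685 to 0.0704) and for mmp14b without NB2 A or vehicle D (adjusted p = 0.059 to 0.0764).

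In the list of cartilage and bone 2 of 48 tested members were higher (4.17%) and 18 lower (37.5%), with a median difference of -0.27. epyc, a cartilage proteoglycan gene, averaged 1860.1 ± 198 in NB2 larvae and 3389 ± 448 in vehicle larvae, and col2a1b, a collagen II gene, averaged 2956 ± 288 in NB2 larvae and 4308 ± 115 in vehicle larvae (differences -0.85 ± 0.08 and -0.54 ± 0.06). matn1, the cartilage matrilin, differed by -0.59 ± 0.12 (chosen later). The paralog matn3b rose, with 1019 ± 73.1 in NB2 larvae and 361 ± 40.9 in vehicle larvae (difference 1.44 ± 0.10), as did col10a1b (0.71, chosen later), a gene of hypertrophic cartilage and bone. The call by limma was lost for col10a1b without NB2 C or vehicle A (adjusted p = 0.0508 to 0.0559). The cartilage marker gene col2a1a had at most 21.6 in any sample and did not pass the test (difference -0.25, limma adjusted p = 0.569).

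Eye and brain genes fell more often than they rose. In the list of photoreceptors and phototransduction 3 of 62 tested members were higher (4.84%) and 18 lower (29%), with a median difference of -0.23. The cone opsins moved in opposite directions: opn1mw2, a green opsin, averaged 144 ± 53.2 in NB2 larvae and 30.2 ± 6.76 in vehicle larvae, and opn1sw1, the ultraviolet opsin, averaged 15385 ± 1129 in NB2 larvae and 26888 ± 2924 in vehicle larvae (differences 1.65 ± 0.20 and -0.80 ± 0.12). pde6ga, of the phosphodiesterase of rods, differed by 1.19 ± 0.18. The marker genes rho, of rods, and opn1lw2, of cones, were both lower (differences -0.57 and -0.57, limma adjusted p = 0.0136 and 0.0065). Chosen later, gnat2, cone transducin, differed by -0.58 ± 0.14, cnga3a, the cone channel, by -0.83 ± 0.13 and guca1c, a guanylate cyclase activator, by 0.96 ± 0.18. The count of 18 lower members was 8 without vehicle B and 10 without vehicle C.

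In the list of retinal pigment epithelium 0 of 27 tested members were higher (by limma, with 1 at an unadjusted p below 0.05 and 0 called by voom) and 7 lower (25.9%), with a median difference of -0.18. pmelb, of pigment granules, averaged 56.4 ± 21.3 in NB2 larvae and 113 ± 25.8 in vehicle larvae, and lrata, which esterifies retinol, averaged 1.48 ± 2.29 in NB2 larvae and 8.16 ± 5.72 in vehicle larvae (differences -0.80 ± 0.16 and -0.74 ± 0.19), and rgrb, a retinal photoisomerase gene, differed by -0.54 ± 0.11. lrata had few reads in both groups, with an SD above the mean in NB2 larvae. The count of 7 lower members fell to 4 on log2(CPM + 0.1). Among lens crystallins 1 of 62 tested members was higher (1.61%) and 0 lower (by limma, with 5 at an unadjusted p below 0.05 and 0 called by voom), with a median difference of -0.08, the 1 being grifin (0.47 ± 0.11). Over all genes 10.2% were called lower.

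Among neural progenitor genes 4 of 45 tested members were higher (8.89%) and 18 lower (40%), with a median difference of -0.28. her2, a Notch target, averaged 55.9 ± 10.3 in NB2 larvae and 106 ± 9.74 in vehicle larvae (difference -0.72 ± 0.11), and notch3 and msi1b, which maintain progenitors, differed by -0.54 ± 0.09 and -0.57 ± 0.07. The 4 higher members, chosen later, were rx1 (0.62), nes (0.43), dld (0.34) and dll4 (0.33). Among genes of neurons and synapses 9 of 66 tested members were higher (13.6%) and 15 lower (22.7%), with a median difference of -0.04. tubb5, a tubulin of young neurons, averaged 1002 ± 94.1 in NB2 larvae and 1957 ± 137 in vehicle larvae (difference -0.95 ± 0.07), while gad2, which makes the transmitter GABA, and atp1a3b, a neuronal sodium pump, were higher (0.97 ± 0.11 and 0.79 ± 0.10). The neuron marker genes moved in opposite directions, with elavl3 lower (difference -0.28, limma adjusted p = 0.0003) and snap25a higher (difference 0.20, limma adjusted p = 0.026). Among glial genes 3 of 32 tested members were higher (9.38%) and 6 lower (18.8%), with a median difference of -0.16. Over all genes 8.22% were called higher and 10.2% lower, so the higher shares of the progenitor and glial lists were near that of all genes. The lower members with the smallest p were fabp7a of radial glia (-0.61 ± 0.09) and cnp of myelin (-0.60 ± 0.08). The higher were apoeb (0.92) and, chosen later, glula (0.59) and gja1b (0.31). The limma calls were lost for nes without NB2 A, NB2 C, NB2 E, vehicle B, vehicle C or vehicle D (adjusted p = 0.0549 to 0.0939) and for dll4 without NB2 A, NB2 C, NB2 E, vehicle A, vehicle C, vehicle D or vehicle E (adjusted p = 0.0589 to 0.172).

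More skeletal muscle genes were called lower than higher, and more heart genes were called higher than lower. In the list of skeletal muscle 8 of 85 tested members were higher (9.41%) and 26 lower (30.6%), with a median difference of -0.15. Over all genes 8.22% were higher and 10.2% lower. tnni4b.1, a troponin I gene, averaged 146 ± 40.9 in NB2 larvae and 8.71 ± 4.42 in vehicle larvae (difference 2.60 ± 0.25, limma adjusted p = 3.59e-10), and pgam2, the muscle phosphoglycerate mutase, averaged 1589 ± 149.7 in NB2 larvae and 834 ± 75.8 in vehicle larvae (difference 0.91 ± 0.12). Chosen later, the calcium release channel gene ryr1b differed by -0.44 ± 0.06, the nebulin gene neb by -0.33 ± 0.07 and the titin gene ttn.1 by -0.42 ± 0.07. The muscle marker genes mylpfa and myhz1.1 did not pass the test (differences -0.19 and -0.15, limma adjusted p = 0.118 and 0.0849). Nor did the marker ckma (difference -0.04, limma adjusted p = 0.933). ckma had reads in 8 of the 10 samples and at most 4.48 in any, too few to judge its level. The count of 26 lower members was 15 on log2(CPM + 1) and 17 after quantile normalization. In the heart list 7 of 33 tested members were higher (21.2%) and 3 lower (9.09%), with a median difference of 0.07. The summed normalised counts of the heart list were 31928 to 39787 in NB2 larvae and 37691 to 43099 in vehicle larvae. The heart marker genes myl7 and vmhc did not pass the test (differences 0.04 and -0.11, limma adjusted p = 0.873 and 0.426). atp2a2a and atp2a2b, the calcium pumps of heart and slow muscle, differed by 0.97 ± 0.12 and 0.48 ± 0.07, and the natriuretic peptide gene nppa by 0.83 ± 0.15. Chosen later, its relatives nppb and nppal differed by 1.1 ± 0.24 and 1.31 ± 0.23, and the 3 lower members were tbx20 (-0.34), mef2ca (-0.33) and ttn.2 (-0.33). The limma call was lost for tbx20 without NB2 A, NB2 B, vehicle C or vehicle D (adjusted p = 0.0529 to 0.076) and for mef2ca without NB2 A, NB2 E, vehicle B, vehicle C or vehicle D (adjusted p = 0.0507 to 0.0934).

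Several lists stayed near or below the share called over all genes (18.4%). In the cytosolic ribosome list 0 of 73 tested members were higher (by limma, with 1 at an unadjusted p below 0.05 and 0 called by voom) and 1 lower (1.37%), with a median difference of -0.06, the 1 being rps8b (-0.71 ± 0.20). In the erythroid list 3 of 43 tested members were higher (6.98%) and 2 lower (4.65%), with a median difference of 0.05: nt5c2l1, creg1 and, chosen later, hbae5, a globin gene with near-identical copies, were higher (0.95, 0.59 and 0.82), and ank1a, ankyrin, and prdx2 were lower (-0.55 and -0.32). In the pronephros list 1 of 28 tested members was higher (3.57%) and 3 lower (10.7%), with a median difference of 0.01: ctsla was higher (0.88), and aqp8b, a water channel (-1.48 ± 0.17), gatm (-0.51) and, chosen later, pax2a (-0.21) were lower. Among retinoid genes 3 of 28 tested members were higher (10.7%) and 3 lower (10.7%), with a median difference of -0.07: cyp26b1, which degrades retinoic acid (0.37), and, chosen later, rdh10b (0.89) and rbp4 (0.24) were higher, and rbp5 (-1.0), the receptor gene raraa (-0.39) and, chosen later, rxraa (-0.32) were lower. In the estrogen list 2 of 13 tested members were higher (15.4%) and 0 lower (by limma, with 1 at an unadjusted p below 0.05 and 0 called by voom), with a median difference of 0.10, the 2 being esr2b (0.82) and ctsd (0.62). In the swim bladder list 2 of 14 tested members were higher (14.3%) and 1 lower (7.14%), with a median difference of 0.03: hbegfa (0.49) and sftpba (0.54) were higher and acta2 (-0.32) lower. A limma call was lost for rps8b without NB2 B (adjusted p = 0.0525), for rbp4 without NB2 B, NB2 E, vehicle B or vehicle D (adjusted p = 0.0535 to 0.0727), for hbae5 without NB2 A, NB2 C, vehicle B, vehicle C or vehicle D (adjusted p = 0.0613 to 0.0781), for pax2a without NB2 A, NB2 C, vehicle B or vehicle C (adjusted p = 0.0576 to 0.117), for sftpba without NB2 B, NB2 C, NB2 D, NB2 E, vehicle B, vehicle D or vehicle E (adjusted p = 0.0678 to 0.138) and for acta2 without NB2 A, NB2 B, NB2 D, NB2 E, vehicle A, vehicle B, vehicle C, vehicle D or vehicle E (adjusted p = 0.0561 to 0.107).

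txnipb, a thioredoxin-interacting gene that responds to glucose, completed the 15 largest falls, with 68.1, 180.4, 155, 119 and 62.6 in NB2 larvae, against 328, 369, 300.2, 341 and 211 in vehicle larvae. The groups lay apart (difference -1.32 ± 0.16, limma adjusted p = 3.23e-08).

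The response at 96 hpf was compared with that of the same exposure at 72 hpf (5 samples each) and 48 hpf (4 columns each). At 72 hpf 181 genes were called (119 higher and 62 lower, 0.728%; 78 by voom), and at 48 hpf 0 by limma (0.0%) and 0 by voom, where 1195 genes had an unadjusted limma p below 0.05, against 7201 at 96 hpf and 3339 at 72 hpf. The NB2 effect itself differed between 96 and 72 hpf at 3028 genes (12.2%), towards higher in 1413 (5.69%) and towards lower in 1615 (6.5%). It differed between 96 and 48 hpf at 1801 genes (7.25%), towards higher in 942 (3.79%) and towards lower in 859 (3.46%). Of the genes called at 96 hpf, 108 were also called at 72 hpf: 89 were higher at both ages, 11 lower at both and 8 went opposite ways. They made up 2.36% of the genes called at 96 hpf and 59.7% of those called at 72 hpf. Of the 30 genes named by size, 29 had an effect that differed between 96 and 72 hpf, and the exception was fosab (limma adjusted p = 0.182). These genes were chosen for large differences at 96 hpf, which the comparison of ages uses again. The choice therefore favoured a high count, and it favours an age difference in each of them that is described below.

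fbxo32 averaged 33 ± 5.24, 61.7 ± 10.5 and 1451 ± 421 in NB2 animals at 48, 72 and 96 hpf, against 39.1 ± 8.20, 42.7 ± 11.4 and 84.9 ± 17.6 in vehicle animals. igfbp1b averaged 6.70 ± 3.67, 19.8 ± 11.5 and 725 ± 241 in NB2 animals at 48, 72 and 96 hpf, against 8.45 ± 6.68, 11.5 ± 6.35 and 33.2 ± 11.3 in vehicle animals. The group means of both genes were furthest apart at 96 hpf, and the effect at 96 hpf exceeded that at 72 hpf by 3.35 ± 0.23 for fbxo32 and 3.38 ± 0.33 for igfbp1b (limma adjusted p = 7.61e-13 for fbxo32 and 4.10e-09 for igfbp1b).

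cyp2k18 averaged 2.29 ± 2.62, 81.1 ± 28.9 and 1354 ± 154 in NB2 animals at 48, 72 and 96 hpf, against 3.61 ± 0.38, 3.48 ± 3.06 and 57.1 ± 23.5 in vehicle animals. vgf averaged 84.9 ± 7.88, 516 ± 240.4 and 1965 ± 413 in NB2 animals at 48, 72 and 96 hpf, against 121 ± 24.8, 120.1 ± 15.8 and 240.5 ± 28.6 in vehicle animals. At 72 hpf the differences were 2.34 ± 0.20 for cyp2k18 and 1.80 ± 0.18 for vgf (limma adjusted p = 2.36e-09 for cyp2k18 and 5.95e-08 for vgf). hsp90aa1.2 averaged 848 ± 45.9, 1522 ± 62.3 and 5205 ± 860.1 in NB2 animals at 48, 72 and 96 hpf, against 791 ± 43.7, 1604 ± 79.8 and 1296 ± 152 in vehicle animals. Its difference at 72 hpf was -0.07 ± 0.08 (limma adjusted p = 0.755).

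The cell division lists also had medians below 0 with age in vehicle animals. Between 72 and 96 hpf the median change of the mitosis list was -1.15 in NB2 animals and -0.47 in vehicle animals, that of DNA replication was -0.90 in NB2 animals and -0.35 in vehicle animals, and that of kinetochore genes was -0.94 in NB2 animals and -0.46 in vehicle animals. mki67 averaged 3091 ± 206, 1342 ± 139 and 326 ± 47.6 in NB2 animals at 48, 72 and 96 hpf, against 3301 ± 235, 1455 ± 86.5 and 945 ± 60.5 in vehicle animals. mcm2 averaged 775 ± 60.8, 525 ± 65.9 and 134 ± 17.3 in NB2 animals at 48, 72 and 96 hpf, against 841 ± 64.8, 473 ± 42.5 and 365 ± 32 in vehicle animals. Both genes declined with age in both groups, and by 96 hpf the decline in NB2 animals had gone further (effect at 96 minus effect at 72 hpf -1.36 ± 0.11 for mki67 and -1.45 ± 0.12 for mcm2, limma adjusted p = 5.11e-11 for mki67 and 1.75e-10 for mcm2).

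**Figure D5:**
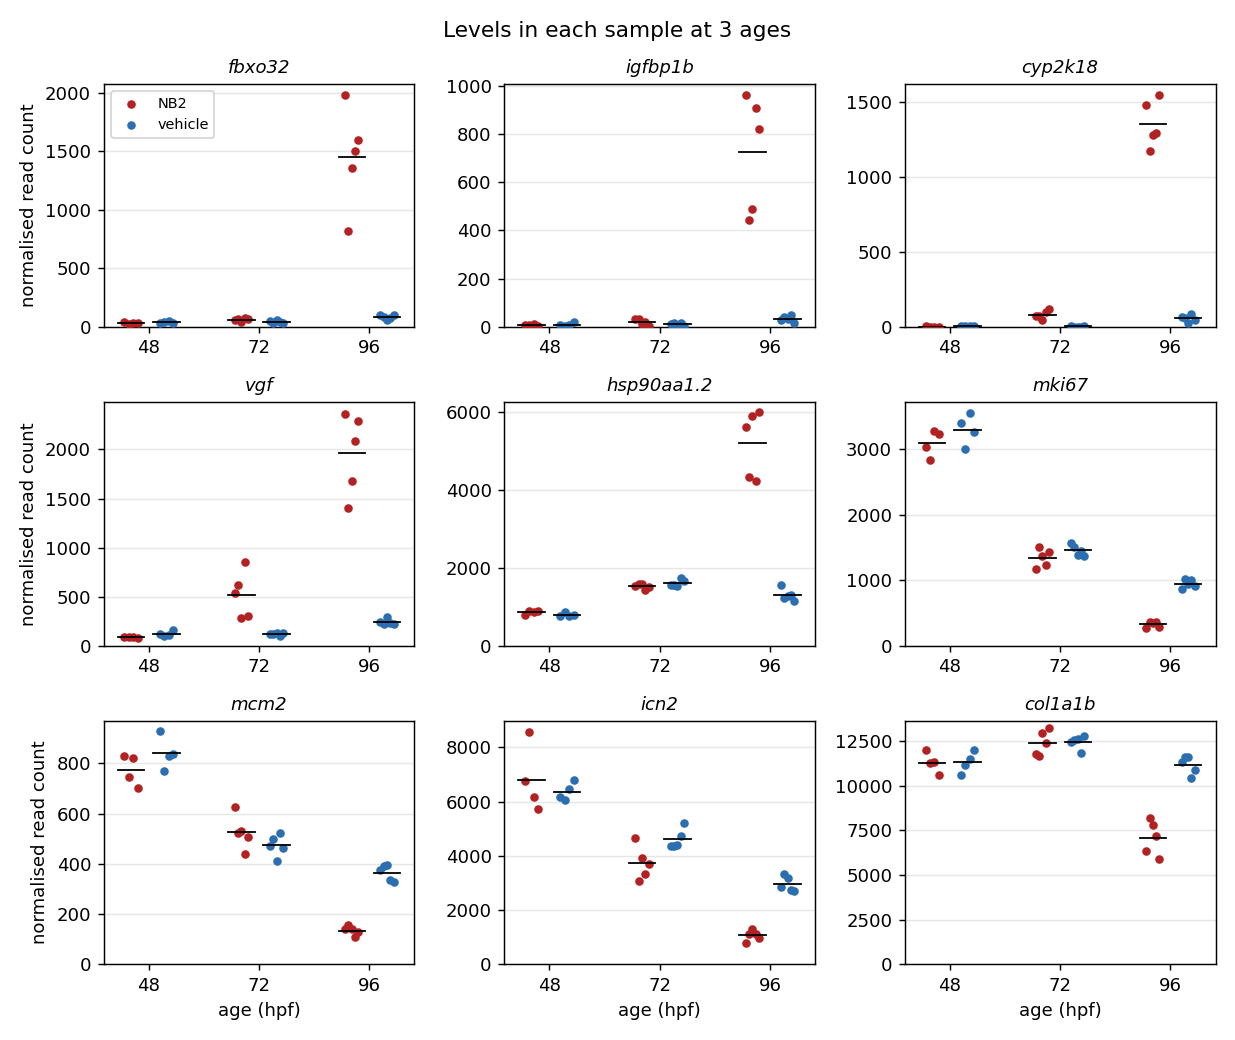
Normalised read counts (y axis, from 0) of 9 genes at 48, 72 and 96 hpf (x axis), with 1 point per sample, a bar at each group mean, and NB2 left of vehicle at each age. fbxo32, at 1451 in NB2 larvae against 84.9 in vehicle larvae at 96 hpf, parts between 72 and 96 hpf, while mki67 declines in both groups.

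More genes were called as changing with age in exposed than in vehicle animals. Between 72 and 96 hpf 8758 genes changed in NB2 animals (35.2%) and 4376 in vehicle animals (17.6%). Of these, 4550 were higher at 96 hpf (18.3%) and 4208 lower (16.9%) in NB2 animals, and 2429 were higher (9.77%) and 1947 lower (7.83%) in vehicle animals. The difference in these counts was not itself tested, and the NB2 samples of 96 hpf had the lower depth given above.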

How the data were processed

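RNA of whole zebrafish larvae was sequenced from 3′-end libraries, and per the labels and the study's methods the authors aligned reads with STAR to GRCz11, counted them with HTSeq and processed them with DESeq2 (versions not given in the sources used here). The deposited table held log2 variance-stabilized values made by the authors for 26992 genes in 28 columns. Inverting the transformation gave whole reads within 0.05 for 100% of values. No 2 of the 96 hpf samples of one group held the same values (Pearson's r across the 10000 most highly read genes was 0.979 to 0.987 within NB2 larvae and 0.980 to 0.989 within vehicle larvae). Gene names came from the reference table, which matched 23971 of the identifiers. The authors' own fold changes and p-values in the deposited files were not used, nor were the tables of other compounds.

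Differences were tested on the deposited log2 values with limma 3.58.1 (R 4.3.3) with a mean trend, in 1 fit of 6 groups over the 24853 genes that exceeded the lowest value in 4 columns or more, two-sided, with Benjamini-Hochberg adjustment at 0.05. On simulated reads over 25216 genes this comparison recovered 58% of 1.5-fold, 82% of 2-fold, 94% of 4-fold and 100% of 8-fold changes. The simulation gave all genes the same spread, the median of the vehicle samples, and changed 50 genes at each fold, far fewer than were called. Genes with few reads were not among those changed. These rates may therefore not hold for the real samples. Python 3.11.15 and pandas 2.3.3 made the summaries. Levels are given as recovered reads divided by the size factor, in place of the planned CPM, so that they share the scale of the test. Lists were described by counts and medians, with no set test, and 57 of their 1949 tested genes are in more than 1 list. Genes were named by size (15 rises and 15 falls, called, with a symbol, a mean above the median and groups that did not overlap) and by list (up to 3 called members with the smallest p in each of 51 lists), 157 genes in all. The 131 others were chosen after their values were seen. Further marker genes were given from the 34 listed, whether or not they passed the test. Those of the exocrine pancreas, lens and erythroid cells did not pass it and were left out. The groups, lists and rules were chosen with earlier results of these data known. The 21 alternatives covered the samples and trend of the fit, the filter on low values, the scaling, log2(CPM) with pseudocounts of 1 and 0.1, voom, and leaving out each sample in turn.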

Additional observations from a re-analysis of the deposited data

Results flagged for a closer look

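In 22 of 576 groups of 5 samples, over 288 genes named in the text, 1 sample stood far from the other 4 (its gap over the range of the group, on the log2 scale, exceeded Dixon's limit of 0.71, which chance passes in about 1 in 20 groups). The 22 groups were fewer than 1 in 20 of the 576, so the number flagged did not exceed that rate. All values here are normalised read counts at 96 hpf.

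NB2 sample B was the distant sample for several genes. npas4a had 257 in NB2 B, with 509 to 667 in the other 4 samples and cbsb had 436 in NB2 B, with 559.7 to 607 in the other 4 samples. c8b had 79.5 in NB2 B, with 27.3 to 34.3 in the other 4 samples and creg1 had 118 in NB2 B, with 149.7 to 162 in the other 4 samples. psmd11b had 347 in NB2 B, with 424 to 458 in the other 4 samples and slc16a3b had 389 in NB2 B, with 559.7 to 609.8 in the other 4 samples.

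Other exposed samples stood apart in single genes. smtlb had 6.85 in NB2 C, with 15.1 to 19.5 in the other 4 samples and aqp8b had 20.6 in NB2 C, with 2.15 to 4.40 in the other 4 samples. aspm had 172 in NB2 D, with 99.8 to 112 in the other 4 samples and gstp1.1 had 224 in NB2 A, with 389.9 to 467 in the other 4 samples. ttn.2 had 32881 in NB2 D, with 26005 to 27609 in the other 4 samples and dld had 1461 in NB2 A, with 1171 to 1234 in the other 4 samples. cyp2aa9 had 6.85 in NB2 C, with 16.2 to 17.2 in the other 4 samples.

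Among vehicle samples, A was distant most often. igfbp1a had 451 in vehicle A, with 287 to 307 in the other 4 samples and cbsb had 230.0 in vehicle C, with 276 to 284 in the other 4 samples. scd had 1.98 in vehicle E, with 6.50 to 8.66 in the other 4 samples and higd1a had 211 in vehicle A, with 136 to 154 in the other 4 samples. tnni4b.1 had 16.4 in vehicle A, with 5.18 to 7.70 in the other 4 samples and nppa had 91.1 in vehicle A, with 121 to 130.4 in the other 4 samples. top2a had 592 in vehicle E, with 712 to 753 in the other 4 samples and hsp70l had 26 in vehicle D, with 9.62 to 13 in the other 4 samples. st13 had 428 in vehicle A, with 466 to 469 in the other 4 samples.

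The NB2 effect at 96 hpf differed from that at 72 hpf at 3028 genes and from that at 48 hpf at 1801 genes, by the interaction term of the limma fit. Of the 30 genes named by size, 29 had an effect that differed between 96 and 72 hpf, a count that their choice by size at 96 hpf favoured.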

How the results depend on the processing

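The count of 4568 genes called at 96 hpf stayed within 1.5 times under all 21 alternatives, all of them limma fits. It was 4171 with the 96 hpf samples alone, 4185 with no mean trend, 4477 with no filter, 4832 after quantile normalization, 4698 with voom, and 3951 to 4472 when 1 sample was left out. The counts of effects that differed between ages stayed within the same limit, that of 96 against 72 hpf being 2405 with no mean trend and 2423 to 3305 when 1 sample was left out. Leaving mt-rnr2 out of the totals was an alternative chosen after seeing the data. No count model was run, and the study itself reported fewer genes at 96 hpf with DESeq2 at an adjusted p below 0.05. How the count depends on the choice of test was not tested. No paired analysis was possible because the columns carry letters that the labels do not tie to replicate numbers. None of the 288 named genes reversed its direction in any alternative. Of 288 named genes, 43 had a call that was lost in at least 1 alternative (25 on log2(CPM + 0.1), 19 with no mean trend, 22 without NB2 E, 20 each without vehicle B and vehicle C), and the cause was not tested. Of 40 list counts over 5, 7 moved by more than 1.5 times in some alternative, among them the retinal pigment epithelium list, with 4 lower members in place of 7 on log2(CPM + 0.1). Of 62 list counts of 5 or fewer, 24 moved when 1 sample was left out. On simulated data for NB2 against vehicle larvae at 96 hpf, with the same spread for all genes and no changes in genes with few reads, 58% of 1.5-fold changes were recovered. The part of depth in this was not tested.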
